A study of Arabidopsis thaliana with 12 samples.

Results

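The comparison described here is that of the *PtSnRK2.7* overexpressor with the wild-type after both had been exposed to salt. It used 6 of the 12 ATH1 GeneChips of the study, 3 of the salt-treated overexpressor and 3 of the salt-treated wild-type, chosen by their labels alone. The wild-type was Arabidopsis of the Columbia strain. The overexpressor was line 20, a single T2 line that expressed the poplar kinase gene *PtSnRK2.7* from the constitutive cauliflower mosaic virus 35S promoter in the same species, and the labels of its arrays spell the transgene PrSnRK2.7. Plants carrying the empty vector were not on these arrays. Seedlings of both genotypes were grown on MS medium under long days, moved at an age of 7 days to medium with 200 mM NaCl, and harvested whole 2 days later. The mock-treated seedlings of both genotypes, 3 arrays each, were moved to medium without NaCl for the same 2 days and served here for context and for the estimate of the spread. The replicates were independent biological ones according to the study. No probe set on the chip was named for the poplar gene, so the level of the transgene itself was not checked.

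SnRK2 kinases are plant protein kinases that are activated by osmotic stress, and some of them also by the stress hormone abscisic acid (ABA). In the absence of ABA, type 2C protein phosphatases hold the ABA-responsive kinases inactive, and ABA bound to its receptors blocks these phosphatases. The active kinases phosphorylate transcription factors that bind the promoters of dehydration-responsive genes. Many of the proteins made in this response, such as LEA proteins, dehydrins and COR proteins, are thought to protect membranes and other proteins when cells lose water. *PtSnRK2.7* belongs to the subclass 2 kinases, which in Arabidopsis are only weakly activated by ABA or not at all.

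Under salt, 50 probe sets (0.22% of 22746) were called higher and 67 (0.295%) lower in the overexpressor than in the wild-type, at a Benjamini-Hochberg adjusted p under 0.05 from limma and a fold change above 2. Values are MAS5 signals, which the authors had scaled so that the trimmed mean of each array was 500.04 to 500.05, and differences are log2 of the overexpressor over the wild-type. The median log2 difference over all probe sets was -0.03. A signal of 1 probe set was not compared with that of another, and whole seedlings cannot tell fewer cells of a type from less RNA per cell. Of the 50, 38 were paired with 1 gene, 10 of them only through the study's own tables, which had been selected on these arrays. Of the 67, 50 were paired with 1 gene, 9 of them only through those tables. All 117 had no overlap between the 3 arrays of each genotype, against 9.32% (higher) and 10% (lower) of all probe sets. They were chosen on these same arrays, so the lack of overlap largely follows from the choice and lends the calls no weight.

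The salt-treated wild-type arrays were less alike than those of any other group. The median SD of log2 signal within a group was 0.36 for the salt-treated wild-type, 0.21 for the salt-treated overexpressor and 0.20 for each mock group. As a description of RNA quality, the 3 prime over 5 prime signal ratio of the actin controls was 20.6 to 37.3 over all arrays. It was 34.6, 27.2 and 31 in the salt-treated wild-type and 28, 24.5 and 25.7 in the salt-treated overexpressor. The GAPDH ratios were 2.29, 3.25 and 2.83 and 2.84, 2.69 and 2.54. Their part in the differences was not tested. Replicate 2 of the salt-treated wild-type was the array farthest from the overexpressor in 27 of the 50 higher probe sets and in 36 of the 67 lower ones. Without it, 168 probe sets were called higher (40 of the 50 among them) and 225 lower (57 of the 67 among them), and without replicate 1 of the same group 129 and 233 were. Without replicate 1 of the salt-treated overexpressor, 14 were called higher and 7 lower, of which 14 and 4 were among the 50 and 67. Of 47 genes named here that passed under salt, 10 still passed in that fit, *CYP97B3*, *BGLU25*, *XTH32*, *AT2G15960*, *AT2G45820*, *GOLS1*, *AGP17*, *AT4G26310*, *EXT3* and *RALFL27*. Without replicates 2 and 3 of that group 18 and 16 still passed, and without wild-type salt replicate 3 19 did. The calls also depended on the mock arrays and on the shared estimate of the spread. With a separate weight for each group 29 and 19 were called, without the intensity trend 26 and 20, and with the 6 salt arrays alone 2 and 1. The 2 and 1 were *CYP97B3*, *AT1G15010* and *AT4G26310*. The methods' t-test called 125 and 146 at an unadjusted p under 0.05 and the same fold limit, and 0 and 0 after Benjamini-Hochberg adjustment. Quantile normalization gave 58 and 50 in place of 50 and 67.

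**Figure D1:**
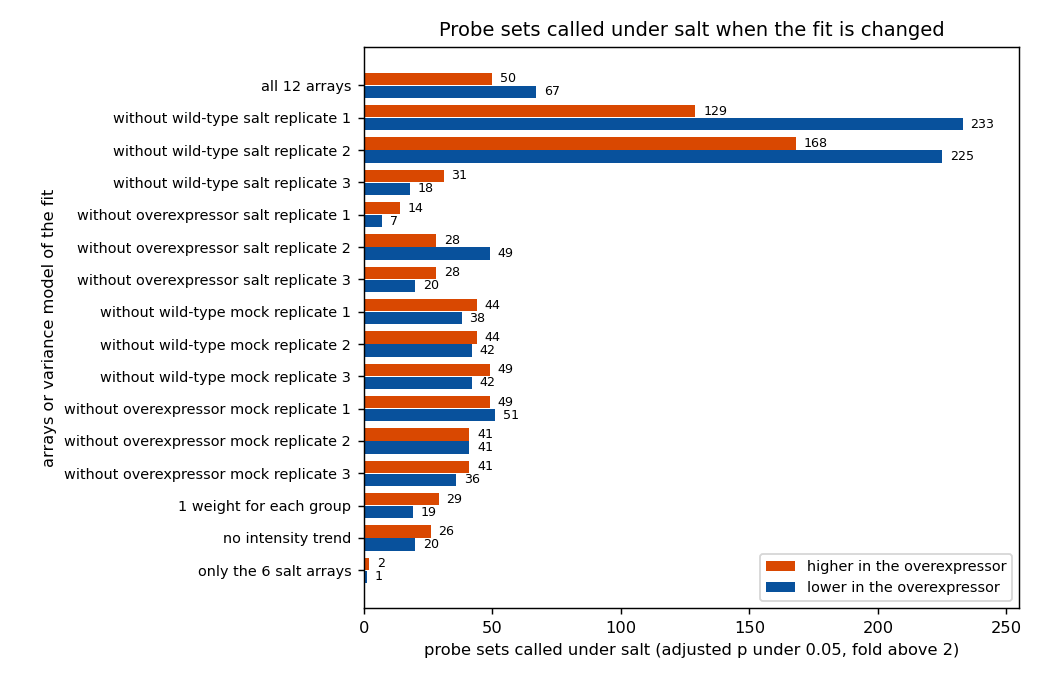
Number of probe sets called higher (orange) and lower (blue) in the overexpressor under salt on the x axis, for the fit of all 12 arrays, for fits without 1 array each and for 3 other fits on the y axis. The counts were 50 and 67 with all arrays, lay between 129 and 233 without replicate 1 or 2 of the salt-treated wild-type, and fell to 2 and 1 with the 6 salt arrays alone.

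Among called genes brighter than the median probe set, the most positive differences were those of *COR15A* and *COR413IM1*, genes of the dehydration and cold response. Of 24 listed genes of the ABA and dehydration response, 14 were measured and all 14 had a positive difference, with a median of 1.45. Of the 14, 7 were higher at an adjusted p under 0.05 (1.23% of all probe sets were, and 2.01% passed in either direction) and none was lower. These were *COR15A*, *COR413IM1*, *ERD10*, *ERD7*, *COR47*, *COR15B* and *LEA14*. Of the 14, 7 were named through tables that the study had selected on these arrays (*COR413IM1*, *ERD10*, *ERD7* and *LEA14* among them). The list itself was chosen with earlier results of these data known, so the shared sign of the 14 is not independent evidence. The count depended on single arrays. It was 11 without replicate 1 and 8 without replicate 2 of the salt-treated wild-type, but 0 without its replicate 3 and 0, 1 and 0 without replicates 1, 2 and 3 of the salt-treated overexpressor. It was 3 with a weight for each group, and 0 without the intensity trend or with the 6 salt arrays alone.

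*COR15A* encodes a chloroplast protein that stabilizes membranes during freezing and drying. Its signal under salt was 5000.4, 405 and 1019 in the 3 wild-type arrays and 13844.5, 12132 and 11121 in the overexpressor. Replicate 1 of the wild-type lay nearest the overexpressor and replicate 2 lowest, and the groups did not overlap. The log2 difference was 3.27 (SE 0.69, adjusted p = 0.034, limma), or 9.67-fold, and it was 4.26 without replicate 1 and 2.45 without replicate 2 of the wild-type. *COR15A* passed in 11 of 22 alternative fits, and not without wild-type salt replicate 3 (adjusted p = 0.096), without overexpressor salt replicate 1, 2 or 3 (0.13, 0.086 and 0.11) or with group weights (0.056). Under mock treatment the signals were 106, 222 and 329 in the wild-type and 96.9, 195.5 and 96.3 in the overexpressor, and the difference of -0.69 (SE 0.69) had an adjusted p of 0.86.

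*COR413IM1*, which encodes a chloroplast inner membrane protein of the cold response, had signals of 372, 87.7 and 131 in the wild-type and 1286, 1154 and 1007 in the overexpressor under salt (log2 difference 2.82, SE 0.48, adjusted p = 0.017). Without wild-type salt replicate 1 the difference was 3.42, and it did not pass without wild-type salt replicate 3 or any 1 of the overexpressor salt arrays (adjusted p of 0.051 to 0.084). The wild-type salt arrays overlapped its mock arrays, 111, 181 and 362, whereas in the overexpressor all 3 salt arrays lay above the mock arrays, 217, 343 and 346. The dehydrin gene *ERD10* had signals of 6991, 2601 and 3415 and 11931, 10841 and 11617 (difference 1.53, SE 0.28, adjusted p = 0.019). Its wild-type replicates 2 and 3 under salt were close to the mock-treated wild-type, 2782, 2761 and 3526. A second dehydrin gene, *COR47*, had signals of 4134.5, 2228 and 2023 and 5938.5, 5767 and 5449 (difference 1.11, adjusted p = 0.026), and here the wild-type arrays 2 and 3 were below the mock level of 3920.3, 4022 and 4256.

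*COR15B* is a close relative of *COR15A*. Its signals under salt were 364, 306 and 307 in the wild-type and 817, 625.5 and 641 in the overexpressor (difference 1.09, SE 0.19, adjusted p = 0.018). Under mock treatment they were 229, 329 and 252 in the wild-type and 139, 210.3 and 148 in the overexpressor (difference -0.71, adjusted p = 0.17). The interaction, the salt difference minus the mock difference, was 1.8 (adjusted p = 0.025, limma), and *COR15B* was the only 1 of the 14 that passed this test. *ERD7* had 1116, 356 and 461 and 1758.5, 1641 and 1379 (difference 1.48, adjusted p = 0.039), and the LEA gene *LEA14* had 4966, 2742 and 2728 and 6606, 5985 and 6247 (difference 0.91, adjusted p = 0.034).

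The other 7 members did not pass the test. *RD29A*, a standard reporter of ABA and drought signaling, had signals of 4063, 383.5 and 913 in the wild-type and 4440.4, 4524 and 4340.0 in the overexpressor. The overexpressor arrays were nearly identical, and wild-type replicate 1 was just below them whereas replicates 2 and 3 were far below. The difference was 1.98 (SE 0.59, adjusted p = 0.1). The same order of wild-type arrays, 1 above 3 above 2, was seen for *RAB18*, a dehydrin gene induced by ABA, with 2418, 182 and 591.5 in the wild-type and 2744, 2009 and 1737 in the overexpressor (difference 1.73, adjusted p = 0.17). *RD20* (0.7, adjusted p = 0.45) and *ALDH7B4* (0.31, adjusted p = 0.49) had wild-type replicate 1 above all 3 overexpressor arrays.

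Upstream of these genes, no measured regulator passed the test. Of 19 listed ABA receptors, phosphatases and SnRK2 kinases, 4 were measured. The phosphatase genes *HAI1* and *HAI2*, which are induced by ABA, differed by 0.4 and 0.51 (adjusted p = 0.67 and 0.74), and by -0.21 and -0.48 without wild-type salt replicate 2. The receptor gene *PYL6* and the endogenous kinase gene *SNRK2.8* differed by -0.53 and -0.49 (adjusted p = 0.41 and 0.38). *SNRK2.8* had signals of 116, 225 and 108 in the wild-type and 125.5, 89.2 and 90.8 in the overexpressor under salt, with overlapping ranges, both below those of mock-treated seedlings (370.3, 599 and 423 and 316, 389.6 and 372). Of 17 listed stress transcription factors, 12 were measured, and their differences had a median of 0.15. The largest in either direction were those of *HB-7* (0.59, adjusted p = 0.31), a homeodomain gene of the ABA response, and the zinc finger gene *ZAT10* (-0.52, adjusted p = 0.56), and none of the 12 passed.

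**Figure D2:**
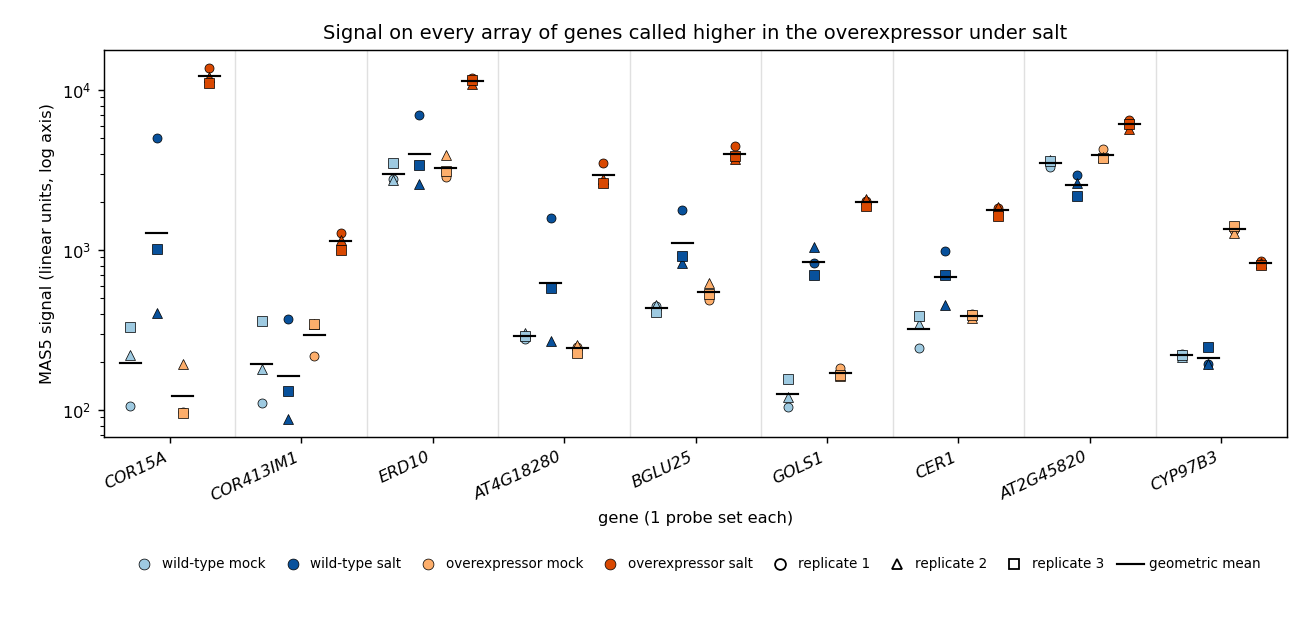
MAS5 signal on a log axis of 9 genes called higher in the overexpressor under salt, on every array. Colors mark the 4 groups, symbols the replicate number and bars the geometric mean. The 3 salt-treated overexpressor arrays lie close together and above all 3 salt-treated wild-type arrays in each gene, and the wild-type arrays spread widest in *COR15A*, *COR413IM1* and *AT4G18280*.

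Beyond the dehydration genes, the higher group held genes of carbohydrate metabolism and the cell surface. *GOLS1*, for galactinol synthase, the first enzyme of raffinose synthesis, had signals of 833, 1041 and 699.8 in the wild-type and 2028, 2083 and 1876 in the overexpressor (difference 1.24, SE 0.17, adjusted p = 0.005). It was 1 of 4 measured genes of galactinol, trehalose and proline metabolism (of 13 listed). The others, *TPS10*, *TPS11* and *DELTA-OAT*, had differences of 0.11, 0.15 and 0.4 and did not pass. Of all probe sets, 1.23% were higher at an adjusted p under 0.05. The beta-glucosidase gene *BGLU25* had 1783, 827 and 923 and 4465, 3697.5 and 3861 (difference 1.85, SE 0.23, adjusted p = 0.0042). Its 3 overexpressor arrays were each more than 2-fold above the highest wild-type array.

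*CER1* encodes an enzyme of alkane formation for the cuticular wax of the shoot. Its signals were 983, 457 and 700.0 in the wild-type and 1828, 1862 and 1635 in the overexpressor (difference 1.38, SE 0.23, adjusted p = 0.017). It belonged to a list of 14 genes of lipid transfer proteins and wax, of which 5 were measured, all 5 with a positive difference (median 1.04). Of the 5, 4 were named through tables selected on these arrays, so the shared sign is not independent evidence. *CER1* alone passed (1.23% of all probe sets were higher at an adjusted p under 0.05). It did not pass without any 1 of the overexpressor salt arrays or without wild-type salt replicate 3. The lipid transfer protein gene *LTP3* had 9206, 3791 and 8386.5 and 14263, 12383 and 14539.9 (difference 1.04, adjusted p = 0.097), without overlap. *LTP4*, whose signals under mock treatment were 61.3, 190.1 and 526 in the wild-type and 28.8, 11.8 and 20.7 in the overexpressor, reached 20947, 6815 and 17305 and 20948.5, 18681 and 23556 under salt (difference 0.63, adjusted p = 0.67).

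*XTH32* encodes an enzyme that cuts and rejoins xyloglucan in the cell wall. Its signals were 705, 709 and 430.1 in the wild-type and 1556, 1489.9 and 1559 in the overexpressor (difference 1.36, SE 0.16, adjusted p = 0.0041). *AT2G45820*, a gene for a remorin, a protein of plasma membrane domains, had 2951, 2635 and 2165.5 and 6471, 5716 and 6143 (difference 1.25, SE 0.12, adjusted p = 0.0013). In both genes the salt-treated wild-type was below the mock-treated seedlings of either genotype and the salt-treated overexpressor above them. For *AT2G45820* the interaction passed (1.09, adjusted p = 0.031), and for *XTH32* it did not (1.19, adjusted p = 0.052). Among called genes chosen after their values were seen, the expansin-like gene *EXLA1* differed by 1.1 and the arabinogalactan protein gene *AGP17* by 1.01 (adjusted p = 0.039 and 0.0045).

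Genes without a clear role completed the higher group. *AT4G18280* had signals of 1584, 269 and 578 in the wild-type and 3492, 2786 and 2633 in the overexpressor (difference 2.23, SE 0.43, adjusted p = 0.026). *AT1G15010* had 459, 313 and 418 and 1673, 1535 and 1363 (difference 1.95, SE 0.27, adjusted p = 0.0066), with wild-type arrays that were closer together than for *AT4G18280*. Leaving out wild-type salt replicate 1 or 2 changed the difference of *AT4G18280* to 2.9 or 1.62, and it did not pass without wild-type salt replicate 3 (adjusted p = 0.078) or without overexpressor salt replicate 1, 2 or 3 (0.11, 0.067 and 0.079). The remaining named genes were *AT2G16750* (1.41), *AT2G15960* (1.28) and the jacalin-like lectin gene *AT1G73040* (1.26), with adjusted p of 0.033, 0.0045 and 0.018. The mock difference of *AT1G73040* was -0.73 (adjusted p = 0.26), and its interaction was 1.99 (adjusted p = 0.031).

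Among called genes brighter than the median probe set with the most negative differences, *PCC1* encodes a small protein that is induced by pathogens and follows the circadian clock. Its signals under salt were 2006, 8723.5 and 4713 in the wild-type and 1376, 1256 and 1476 in the overexpressor (difference -1.67, SE 0.37, adjusted p = 0.038). *AT3G22240* had 3678, 16409 and 10617 and 2319, 2569.6 and 1898.5 (difference -1.94, SE 0.39, adjusted p = 0.03). Without wild-type salt replicate 1 the latter was -2.56. In both genes wild-type replicate 2 lay above all mock arrays and replicate 1 was nearest the overexpressor. The legume lectin gene *AT5G03350* had 1567, 5624 and 3230.4 and 980.0, 1116 and 1049 (difference -1.54, adjusted p = 0.038), again with replicate 2 highest. Without that replicate the 3 differences were -1.17, -1.48 and -1.1, and each still passed. *PCC1* and *AT5G03350* lost their calls when any 1 of the 6 mock arrays, wild-type salt replicate 3 or any 1 of the salt-treated overexpressor arrays was left out. Under mock treatment *PCC1*, *AT3G22240* and *AT5G03350* were also lower in the overexpressor, without overlap between arrays. These differences were -0.64, -0.63 and -0.95 (adjusted p = 0.66, 0.71 and 0.36, limma). The interaction did not pass for any of the 3 (adjusted p = 0.46, 0.37 and 0.68).

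Several genes had low signals in mock-treated seedlings of both genotypes. The receptor-like kinase gene *CRK7* had 599, 317 and 405 in the salt-treated wild-type and 154, 127 and 187 in the overexpressor (difference -1.46, SE 0.32, adjusted p = 0.036), and under mock treatment at most 25.1 in either genotype. *AT1G57650* had 490.3, 301 and 466 and 111, 97.2 and 90.2 (difference -2.05, SE 0.36, adjusted p = 0.018) and mock signals of at most 5.93. The ankyrin repeat gene *AT4G03450* had 273, 260.1 and 260.5 and 97, 62.9 and 103 (difference -1.63, adjusted p = 0.017) and mock signals of at most 62.1. For these genes the wild-type replicates did not show the order seen in *PCC1*. The mock signals of *AT1G57650* and most of those of *CRK7* lay below the 20th percentile of the arrays (20.6 to 27.8), so no difference between treatments is given for them. For *AT4G03450* the interaction was -1.2 (adjusted p = 0.22).

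Of 16 listed genes of salicylic acid and defense, 8 were measured and 7 had a negative difference under salt (median -0.55). The median of the 8 under mock treatment was -1.47. Only *WRKY70*, a transcription factor gene of the salicylic acid response, passed (0.783% of all probe sets were lower at this threshold). Its signals were 2204.5, 2306 and 3632 in the wild-type and 1478, 1115 and 1672 in the overexpressor (difference -0.91, SE 0.19, adjusted p = 0.034), and it was lower under mock treatment as well (-1.33, adjusted p = 0.009). It did not pass under salt without any 1 of the wild-type mock arrays, overexpressor mock replicate 3, wild-type salt replicate 3 or any 1 of the overexpressor salt arrays, nor with group weights (adjusted p = 0.077) or without the intensity trend (0.098). Of the 8, 7 were named through tables selected on these arrays. Its relative *WRKY54* differed by -0.96 (adjusted p = 0.094), and the camalexin synthesis gene *PAD3* by -1.12 (adjusted p = 0.24), or -1.84 without wild-type salt replicate 2. Of 18 measured jasmonate genes (of 26 listed), none passed in either direction, with a median of -0.15.

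Among the others, the jacalin-like lectin gene *AT1G52070* had signals of 186, 523 and 134 in the wild-type and 61, 57.2 and 44.4 in the overexpressor (difference -2.13, SE 0.41, adjusted p = 0.026). Under mock treatment the signals were 1109, 842 and 501 and 940.4, 693 and 817. All 3 overexpressor arrays lay below these under salt, whereas wild-type replicate 2 lay among them. *AT5G54370* had 191, 608 and 285 in the wild-type and 95.4, 120.1 and 108 in the overexpressor under salt (difference -1.58, adjusted p = 0.049). It passed in only 7 of 22 alternative fits, and not without overexpressor salt replicate 1 (adjusted p = 0.16) or with group weights (0.098). Of the class III peroxidase genes, *AT3G01190* had 217, 430.4 and 202 and 96.3, 127 and 105 (difference -1.29, adjusted p = 0.029). *Prx37* had 1066, 981 and 814 and 332, 446.5 and 398 (difference -1.28, SE 0.19, adjusted p = 0.0093), and its salt level in the overexpressor lay in the range of the mock level (323, 427 and 511) whereas all 3 salt arrays of the wild-type were above its mock arrays (495, 434 and 335).

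Extensins are hydroxyproline-rich structural proteins of the cell wall, and their genes share repeats. Probe sets of 4 such genes were called lower, *EXT3*, *AT1G23720*, *AT5G06630* and *HRGP1*. All 4 are of the kind marked as able to bind transcripts of related genes, so they may not be 4 separate measurements, and the last 2 were chosen after their values were seen. *EXT3* had signals of 306, 590.2 and 379 in the wild-type and 116, 141 and 117 in the overexpressor (difference -1.72, SE 0.21, adjusted p = 0.0042), mock signals of 539, 442 and 417.5 and 472, 518 and 409, and an interaction of -1.72 (adjusted p = 0.037). The other 3 differed by -1.4, -1.42 and -1.28 (adjusted p = 0.032, 0.048 and 0.039). Of 13 listed cell wall loosening genes and extensins, 7 were measured and 2 were lower (0.783% of all probe sets were). The 2 were *EXT3* and the beta-galactosidase gene *BGAL4*, both among 4 of the 7 that were named through tables selected on these arrays. *BGAL4* had 403, 505 and 237 in the wild-type and 159, 197 and 147 in the overexpressor under salt (difference -1.13, adjusted p = 0.048). Its mock difference was 0.91 (adjusted p = 0.21) and its interaction -2.04 (adjusted p = 0.044). Under salt *BGAL4* passed in 6 of 22 alternative fits and *EXT3* in 21, and without any 1 of the overexpressor arrays *EXT3* alone of the list passed.

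Transporter and acyltransferase genes were also in the lower group. The MATE efflux transporter gene *AT3G23550* had signals of 1841, 1179.6 and 1887 in the wild-type and 508, 663 and 677 in the overexpressor (difference -1.39, SE 0.23, adjusted p = 0.016). Under mock treatment they were 1228.5, 748 and 770.2 and 1181, 1572 and 1729.9, which overlapped, and the interaction was -2.12 (adjusted p = 0.028). The acyltransferase gene *AT4G15390* had 902, 2447 and 889 and 283, 667 and 346 (difference -1.64, adjusted p = 0.038), with 1 wild-type array far above the other two.

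**Figure D3:**
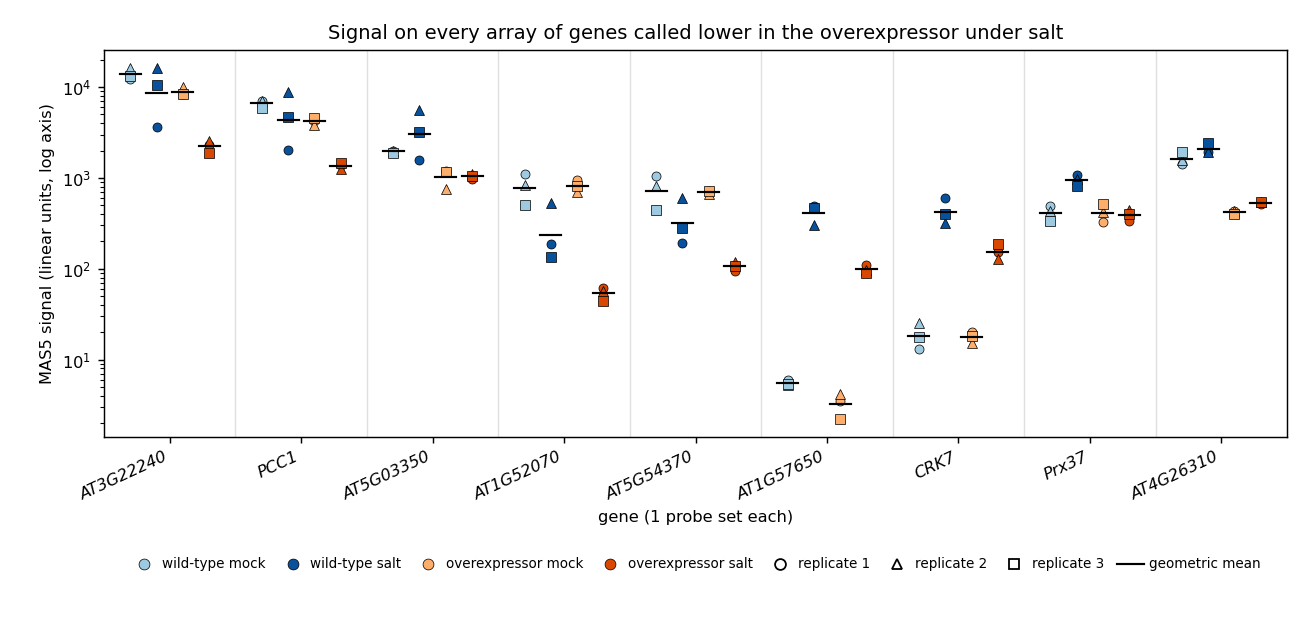
MAS5 signal on a log axis of 9 genes called lower in the overexpressor under salt, on every array, with colors, symbols and bars for group, replicate number and geometric mean. Wild-type salt replicate 2 (triangle) is the highest of its group in *AT3G22240*, *PCC1*, *AT5G03350*, *AT1G52070* and *AT5G54370* and the lowest in *AT1G57650* and *CRK7*, and *AT4G26310* is lower in the overexpressor in both treatments.

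Glucosinolates are sulfur-rich defense compounds of the cabbage family, and aliphatic ones are built from methionine. Of 15 listed genes of their synthesis, 6 were measured, and all 6 had a negative difference (median -1.33), but none passed the test. Of the 6, 4 were named through tables selected on these arrays, so the shared sign is not independent evidence. *MAM3* and *MAM1*, for enzymes of methionine chain elongation, had signals of 455, 2259 and 773 and 452.5, 2972.5 and 715 in the wild-type and of 195, 410.5 and 282 and 313, 376 and 316 in the overexpressor. The differences were -1.71 and -1.56 (adjusted p = 0.062 and 0.11). *BCAT4*, for the aminotransferase that opens the pathway, differed by -1.48 (adjusted p = 0.075). In each of the 6 genes wild-type replicate 2 was well above replicates 1 and 3. Without it the differences of *MAM3*, *MAM1* and *BCAT4* were -1.07, -0.77 and -0.82 and 3 of the 6 passed, without wild-type replicate 1 4 did, and without each of the other arrays none did.

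Of 12 listed genes of indole glucosinolate and tryptophan synthesis, 2 were measured and 1 was lower (0.783% of all probe sets were, at an adjusted p under 0.05). The glucosyltransferase gene *UGT74B1* was lower, with 1746, 1816 and 1453 in the wild-type and 1007, 988 and 1129.6 in the overexpressor (difference -0.68, SE 0.12, adjusted p = 0.018), and *CYP79B2* did not pass (-0.67, adjusted p = 0.2). *UGT74B1* passed in 17 of 22 alternative fits, and not without overexpressor salt replicate 1 (adjusted p = 0.086), with group weights (0.052) or without the intensity trend (0.065). Of 2 more genes of this chemistry, chosen after their values were seen, the indole glucosinolate methyltransferase gene *IGMT4* was lower and the epithiospecifier gene *ESP* was higher. *IGMT4* had 816, 696 and 841 and 329.8, 355 and 388 (difference -1.13, adjusted p = 0.027). *ESP* had 735, 514 and 699.9 and 1424, 1365 and 1461 (difference 1.14, SE 0.17, adjusted p = 0.0093).

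Other lists held single genes that passed (0.783% of all probe sets were lower at an adjusted p under 0.05). The iron deficiency gene *F6'H1*, for an enzyme of coumarin synthesis, was lower, with 1210.3, 1427 and 1863 in the wild-type and 743.5, 815 and 839 in the overexpressor (difference -0.89, adjusted p = 0.026). It was 1 of 3 measured iron genes (of 14 listed). Their median difference was -1.63 under salt, which is the value of the iron deficiency regulator gene *BHLH101*, and -2.41 under mock treatment. With a floor at the 20th percentile of the arrays *BHLH101* differed by -0.28 (adjusted p = 0.91, limma). Without overexpressor salt replicate 1 it differed by -0.73, and it passed in 0 of 21 alternative fits. *BHLH39*, an iron deficiency transcription factor gene, had 51.7, 131 and 66.4 and 5.33, 31.5 and 23.7 without overlap (difference -2.27, adjusted p = 0.11), and in each genotype all 3 salt arrays were below all 3 mock arrays. Raising signals under the 20th percentile of the arrays (20.6 to 27.8) to it gave -1.51, and leaving out overexpressor salt replicate 1, the lowest array, gave -1.49. The superoxide dismutase gene *CSD2* was lower, with 605, 901 and 670.3 and 399, 431 and 377.5 (difference -0.83, adjusted p = 0.024). Of 22 listed genes of sodium, potassium and anion transport, 3 were measured and none passed. These were the anion channel gene *SLAH3* (0.42) and the nitrate transporter genes *NRT1.8* (0.24) and *NRT1.5* (0.14). No sodium transporter gene of the list was measured.

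**Figure D4:**
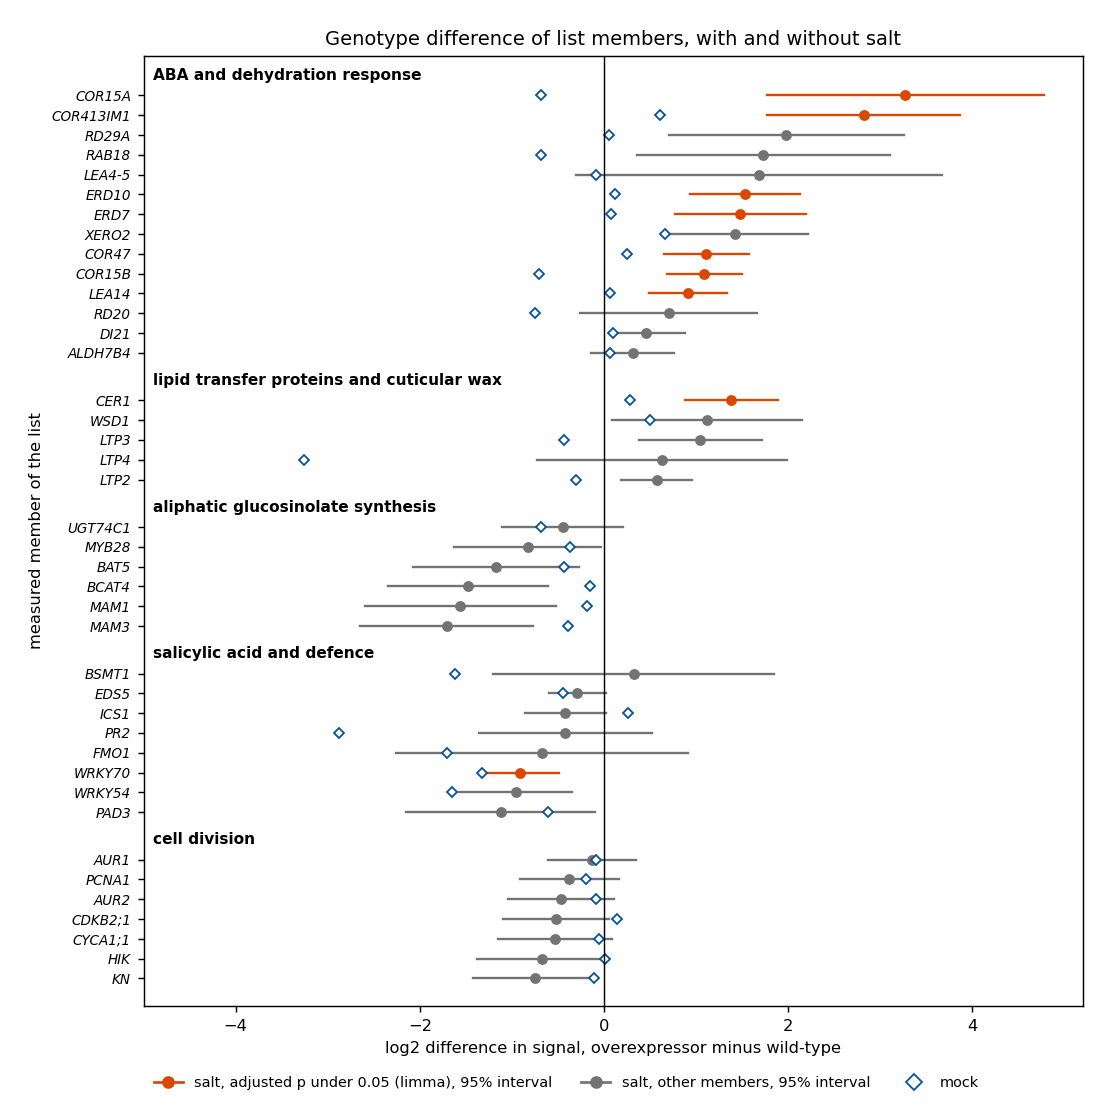
Log2 difference of the overexpressor minus the wild-type on the x axis for the measured members of 5 gene lists, under salt (circles with 95% intervals from limma, orange where the adjusted p was under 0.05) and under mock treatment (open diamonds). All 14 members of the ABA and dehydration list and all 5 of the lipid transfer and wax list lie above 0 under salt, and all 6 aliphatic glucosinolate and all 7 cell division genes below it.

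The genotype difference without salt shares no array with that under salt, and few probe sets were called in both. Under mock treatment 14 probe sets (0.0615%) were called higher and 67 (0.295%) lower in the overexpressor. Of the 14, 1 was also called higher under salt (7.14% of the mock calls and 2% of the 50), and of the 67, 4 were also called lower (5.97% of either list). None was called in the opposite direction. The median log2 difference of the 14 was 1.13 under mock treatment and 0.23 under salt, and that of the 67 was -1.85 and -0.18. The first values of each pair were used to choose these probe sets and are given as a description. Of the 50 and 67 salt calls, the median differences under mock treatment were 0.2 and -0.01.

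The 5 probe sets called in both treatments differed in the same direction in both. The cytochrome P450 gene *CYP97B3* was at 194, 195 and 249 in the wild-type and 851, 831 and 807 in the overexpressor under salt and at 224, 215 and 221 and 1339.5, 1278 and 1424 under mock treatment. Its differences of 1.97 (SE 0.11, adjusted p = 9.7e-06) and 2.61 (SE 0.11, adjusted p = 3.2e-07) were called in both treatments, and the interaction was -0.64 (adjusted p = 0.12). The overexpressor signals were lower under salt than under mock treatment, without overlap. *AT4G26310*, a gene of the elongation factor P family, was at 1927, 1940.0 and 2409 and 513.5, 548 and 540.0 under salt and at 1407.5, 1577 and 1927 and 429, 431 and 403.5 under mock treatment. Its differences were -1.96 (adjusted p = 1.8e-05) and -1.95 (adjusted p = 1.9e-05). Both genes remained called in each of the 22 alternative fits with limma. The efflux transporter gene *DTX1*, the ankyrin gene *ANK* and the acyltransferase gene *AT5G39080* differed by -1.03, -1.23 and -1.14 under salt and by -1.29, -1.6 and -1.2 under mock treatment. The signals of *DTX1* were higher with salt in both genotypes, from 131, 115 and 102 to 1889.8, 1249.5 and 2249 in the wild-type and from 46.5, 44 and 50.9 to 988, 866 and 734 in the overexpressor.

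**Figure D5:**
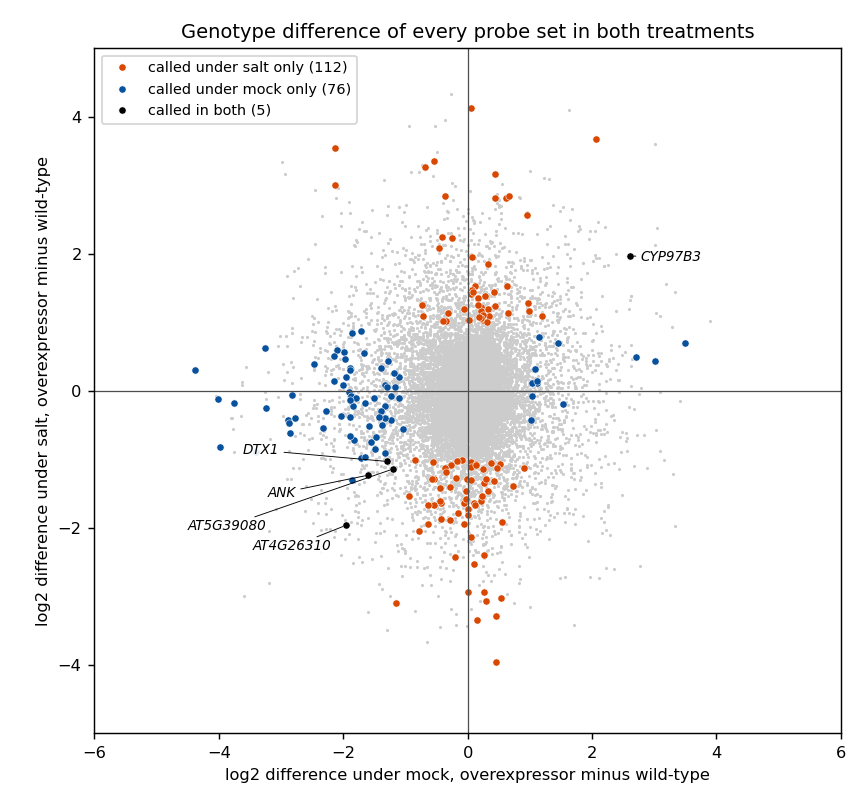
Log2 difference of the overexpressor minus the wild-type under mock treatment (x axis) and under salt (y axis) for all 22746 probe sets (gray), with those called under salt (orange), under mock treatment (blue) or in both (black). Called probe sets spread along 1 axis or the other, and only the 5 labeled ones were called in both.

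The interaction tested whether the genotype difference under salt itself differed from that under mock treatment. Of all probe sets, 56 (0.246%) had a positive and 12 (0.0528%) a negative interaction at an adjusted p under 0.05. Of the 50 probe sets called higher under salt, 8 were among them, and of the 67 called lower, 5 were. The interaction contains the salt difference by which these probe sets were chosen, so part of this overlap is built in. For the rest of the salt calls the difference between treatments was not shown. Positive interactions also came from genes that were lower in the overexpressor under mock treatment and did not pass under salt. The anthocyanin genes *DFR*, *UGT75C1* and *GSTF12* differed by -1.67, -1.97 and -1.86 under mock treatment and by 0.55, 0.46 and 0.84 under salt. *DFR*, for dihydroflavonol reductase, was at 1249, 1076 and 1628 and 600.1, 346.5 and 328 without salt and at 4067, 2245 and 3444 and 4644, 4294 and 4998 with it. The phosphate starvation gene *PS2* was at 522, 557 and 627 and 104, 61 and 89.2 without salt and at 2034.5, 1820.1 and 2153 and 1280.4, 1404 and 1986 with it. None of the 8 measured flavonoid genes (of 19 listed), 12 phosphate genes (of 22) and 8 sulfur deficiency genes (of 13) passed under salt, with medians of 0.08, -0.28 and 0.24 there and of -1.76, -1.56 and -1.76 under mock treatment. In that treatment 0.431% of all probe sets were lower and 0.132% higher at an adjusted p under 0.05. All 12 phosphate genes, 7 of the 8 sulfur genes and 2 of the 8 flavonoid genes were named through the study's tables, which had been selected on these arrays, so their mock medians are not independent evidence.

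Markers of tissues were compared beside these groups. The root gene *PYK10*, for an abundant beta-glucosidase, had signals of 13707, 18990.5 and 14574 in the wild-type and 12256, 13602 and 12770.3 in the overexpressor under salt (difference -0.28, adjusted p = 0.41). The 3 measured root markers (of 13 listed) had a median difference of -0.32 and none passed. The light-harvesting gene *LHCB4.2* had 2182, 9771 and 3427 and 6259, 6109.5 and 6886 (difference 0.62, adjusted p = 0.45), and the other two measured photosystem genes (of 18 listed) differed by 0 and 0.27. Without wild-type salt replicate 2 the difference of *LHCB4.2* was 1.23 (adjusted p = 0.0028) and that of *PSAD-2* 0.94 (adjusted p = 0.02), and without replicate 1 they were 0.15 and -0.22. Markers of roots and of green tissue were both detected. All 7 measured cell division genes (of 18 listed) had a negative difference (median -0.52) and none passed, and 5 of the 7 were named through tables selected on these arrays. The cytokinesis gene *KN* had 184, 592 and 257 in the wild-type and 169.7, 213 and 164 in the overexpressor (difference -0.75, adjusted p = 0.23). In each of these 7 genes and in *LHCB4.2* wild-type replicate 2 was the highest of its group. Their part in the other differences was not tested.

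Of the 6 genes that the study had also measured by RT-qPCR, 4 were paired with a probe set here, *COR15A* and *AT4G18280* above and 2 more. By RT-qPCR the study reported stronger upregulation by salt in the *PtSnRK2.7* overexpressors than in the wild-type and vector control. That is a salt response, whereas the values here compare the genotypes under salt. *AT4G33550* had 3243, 429.8 and 1408.5 in the wild-type and 4054, 5085 and 4106 in the overexpressor (difference 1.81, adjusted p = 0.083). The cell wall invertase gene *CWINV5* had 663, 69 and 186 and 544, 775 and 716 (difference 1.72, adjusted p = 0.14), with wild-type replicate 1 in the range of the overexpressor. Without wild-type salt replicate 1 the differences were 2.5 and 2.56, and without replicate 2 they were 1.04 and 0.93. Neither passed with all arrays, and in all 4 genes wild-type replicate 2 was the lowest and replicate 1 the highest of its group.

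Low signals gave the most extreme differences. Of the 117 called probe sets, 37 of the 50 higher and 36 of the 67 lower ones were brighter, in the genotype with the higher level, than the median probe set of the chip. The most positive difference, that of *AT3G58060* (4.13), and the most negative were of genes below that limit, and both genes were chosen after their values were seen. The most negative was that of *RALFL27*, for a small secreted peptide of the RALF family. It had 34.8, 78.7 and 58.5 in the wild-type and 3.23, 3.12 and 4.29 in the overexpressor under salt and 162, 202 and 185 and 264, 266.5 and 223 without it (difference -3.95, SE 0.32, adjusted p = 0.00016). The overexpressor signals lay below the lowest 20% of each array (20.6 to 27.8), and with a floor at that percentile the difference was -1.22 (adjusted p = 0.035).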

How the data were processed

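Whole-seedling RNA of 12 samples in 4 groups of 3 was hybridized to ATH1 GeneChips. The deposited values are intensity values, the MAS5 signal of each probe set, which the authors computed per array and scaled to a common trimmed mean. Here log2 of the deposited signals was fitted with limma 3.58.1 in R 4.3.3 on 4 group means, with an intensity trend, and p-values were adjusted by Benjamini-Hochberg over 22746 probe sets. The 64 control probe sets were left out. The study's methods used Welch's test, which was run here as the methods' t-test. The number of arrays limits the precision.

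Probe sets were paired with 1 gene through the platform annotation (13513, symbols updated through TAIR10.1) or, for 698, through the names in the study's supplementary tables. No gene was paired with 7978 probe sets, and 557 had several. Where a gene had several probe sets, the brightest on average was used. The text names the 15 most positive and 15 most negative differences among called probe sets with 1 gene, no overlap between groups and a higher group above the median signal, up to 4 members of each of 35 gene lists, the probe sets called in both treatments and the genes with RT-qPCR in the study. Members and lists were chosen with earlier results of these data known. Alternatives were other scalings, floors, filters, weights, tests and fits without each array. Columns of the authors' own comparisons were not used, and promoter motifs were not analysed here. The fit was also run on simulated data with known changes in bright probe sets. Noise there was drawn independently for each probe set, and only the sign of the changes was required to be right. That run therefore lends the salt calls no weight.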

Additional observations from a re-analysis of the deposited data

Results flagged for a closer look

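For 13 named genes the genotype difference under salt differed from that under mock treatment by limma's interaction test (all 12 arrays, adjusted over 22746 probe sets). Each value is the salt difference minus the mock difference on the log2 scale. These calls depended on the fit. All 13 passed without wild-type salt replicate 1 or 2, with either weighting and with either scaling. Only 1 passed without the intensity trend, 4 with the replicate number as a block, and 3 when wild-type mock replicate 2 or 3, overexpressor mock replicate 3 or any 1 of the overexpressor salt arrays was left out. Negative values were found for *RALFL27* (-4.41, SE 0.45, adjusted p = 0.0036), the transporter gene *AT3G23550* (-2.12, adjusted p = 0.028), *BGAL4* (-2.04, adjusted p = 0.044), *EXT3* (-1.72, adjusted p = 0.037) and *MCCA* (-1.45, adjusted p = 0.037). *MCCA*, for a subunit of an enzyme of leucine breakdown, differed by 1.02 under mock treatment and by -0.43 under salt. The salt signals of *RALFL27* in the overexpressor lay below the 20th percentile of the arrays, and with a floor there its interaction was -1.67 (adjusted p = 0.076).

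Positive values in genes called higher under salt were those of *AT2G45820* (1.09, adjusted p = 0.031), *ESP* (1.46, adjusted p = 0.034), *COR15B* (1.8, adjusted p = 0.025) and *AT1G73040* (1.99, adjusted p = 0.031). The others were of genes that were lower in the overexpressor under mock treatment, *DFR* (2.22, adjusted p = 0.031), *PS2* (2.39, adjusted p = 0.0073), *UGT75C1* (2.42, adjusted p = 0.037) and *GSTF12* (2.7, adjusted p = 0.0073). Of the 13, *GSTF12* and *PS2* each passed in 20 of 21 alternative fits and *RALFL27* in 19 of 20, and the others in 9 to 12 of 21.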

How the results depend on the processing

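The counts of calls moved with the processing, and the cause was not tested. Under salt (50 higher, 67 lower), 26 and 20 were called without the intensity trend, 319 and 389 with array quality weights, 29 and 19 with 1 weight for each group, 2 and 1 with the 6 salt arrays alone, 125 and 146 by the methods' t-test unadjusted and 0 and 0 after adjustment, 279 and 178 with no fold limit, and 19 and 10 at an adjusted p under 0.01. With 32 added before log2, 38 were higher and 39 lower. Leaving out 1 array gave 14 to 168 higher and 7 to 233 lower. Under mock treatment (14 higher, 67 lower), the counts were 6 and 30 without the trend, 51 and 142 with array weights, 32 and 113 with group weights, 94 and 180 by the t-test unadjusted and 0 and 0 adjusted, and 3 and 31 at an adjusted p under 0.01. The 14 became 6 with 32 added and 30 with no fold limit. Leaving out 1 array gave 4 to 21 and 30 to 107. For the interaction (56 positive, 12 negative), the counts were 145 and 25 with median centring, 109 and 42 with a filter on dim probe sets, 1 and 2 without the trend, and 710 and 572 with array weights. The 12 became 22 with quantile normalization and 20 with group weights. Leaving out 1 array gave 4 to 466 and 1 to 294. The replicate numbers did not pair the salt arrays (correlations of same-numbered deviations of -0.01, 0.09 and 0.02). With the replicate number as a block, 39 and 45 were called under salt, and the interaction counts were 17 and 1. Of 47 named genes called, 43 to 47 remained called under the scalings, the floor, the offset and the filter, and 10 without overexpressor salt replicate 1. *GUN4* changed sign, from -0.02 to 0.49 (adjusted p = 0.027), without wild-type salt replicate 2, and was -0.33 without replicate 1. Low signals limit the size of the largest differences.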
